A study of Homo sapiens with 12 samples.

Results

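The effect of DM without added BMP2 was read from 6 arrays of SK-OV-3 cells, an established human ovarian cancer line. Of the 12 arrays in the series, these are the 3 whose source label gives PBS, the saline control, and the 3 whose source label gives DM at 5 µM; both groups are compared after 24 h in culture, across genes and in both directions. The other 6 arrays hold cells given recombinant BMP2 at 100 ng/ml, 3 without and 3 with DM at 5 µM, and serve below as a second measurement of the DM effect. Every group is the same cell line at the same time point, each dish is labelled a biological replicate of that 1 line, and no genotype differs. The labels give the agent only as DM, and it is called that here. The p-values measure the spread between dishes of 1 line.

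Bone morphogenetic proteins bind pairs of type I and type II receptor kinases, which phosphorylate SMAD1, SMAD5 and SMAD9, and these enter the nucleus with SMAD4. The ID genes, which encode helix-loop-helix proteins that hold other transcription factors away from DNA, are the best known direct targets, and SMAD6 and SMAD7 are induced as inhibitors of the same pathway. A second programme that recurs below is the amino acid response: when translation initiation is slowed through eIF2-alpha, the transcription factor ATF4 accumulates and drives genes for amino acid synthesis, import and tRNA charging.

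Each value is a MAS5 signal, a linear intensity per probe set that the authors had scaled so that the arrays share a trimmed mean. Differences are DM minus PBS on the log2 scale, followed after ± by the standard error of the limma fit, with n = 3 arrays in each group, and called genes are those with an adjusted p (Benjamini-Hochberg, 12674 genes tested) under 0.05. The 12 arrays had median signals from 86.7 to 112, and each array's mean correlation with the others of its group lay between 0.934 and 0.956. The SK-OV-3 markers ERBB2 and PAX8 were bright in both groups: ERBB2 had a mean signal of 10960 ± 1358 (SD, n = 3) with PBS and 11500 ± 644 with DM, and PAX8, a transcription factor of the ovarian and tubal lineage, 5188 ± 516 and 4774 ± 698. Of the other markers chosen for this line, KRT7 was called higher with DM (0.94 ± 0.14) and CD24 lower (-0.37 ± 0.09), both described below. KRT8, KRT18 and KRT19 were not called. Of 33 markers of endothelial, fibroblast, leukocyte and mesothelial cells, 8 passed the filter on dim probe sets and 0 were called by limma, with 0 also at an unadjusted p under 0.05. Over all 12674 genes tested, 2052 had an unadjusted p under 0.05 in DM against PBS. Fewer cells of a kind and less RNA per cell cannot be told apart in such samples.

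DM changed 453 genes, 3.57% of those tested, and for all 453 the PBS and DM arrays did not overlap, which was also so for 21.8% of all genes tested. Of the 453, 236 were higher (1.86%) and 217 lower (1.71%). Most changes were small: 36 genes were at least 2-fold higher and 48 at least 2-fold lower, while the median difference over all genes was 0.02. The count depended on single arrays and on the scaling. It was 295 without PBS replicate 1, 252 without PBS replicate 3 and 260 without DM replicate 1, and with each array centred on its median it was 234, of which 151 were higher and 83 lower, so that the share of higher calls went from 52.1% to 64.5%. Among 118 called genes chosen for description, 77 kept the call without each of the 6 arrays in turn, and where one lost it, the array is named beside the gene. Called genes outside these 118 were not checked individually in this way. A gene's value is that of its brightest probe set. Averaging all its probe sets, dim ones included, took COL8A1, NRG1, RUNX2 and THBS1 below the filter and ended 47 of the other 114 calls. The difference also shrank by more than 1.5 times or turned in 23 of these: ASNS, ATF6, BIRC5, CARS1, CBS, DEPP1, DUSP1, HAS3, IL1A, ITGB3, MCL1, MIR1915HG, NFKBIZ, P4HA1, PHLDA2, RBM3, SCD, SKI, SLC35C1, STC1, TPM1, TXNRD1 and YARS1. The other 24 were CA12, CD24, CEBPG, CLPB, CTSB, DHRS3, GULP1, HSPB1, IFRD1, JUN, KLF4, KRT7, MCM4, MSX1, NUSAP1, PDK1, SLC7A5, SMAD7, SMAD9, SPDL1, SQSTM1, TAGLN, TTK and ZFAS1. With averaging ID4, DUSP4 and TRIB3 kept the call at smaller differences of -2.18, 1.64 and 0.995, and IGFBP7, ISG20 and PHLDA1 at larger ones of -1.34, 1.71 and 0.66.

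The lists with the highest shares of called members were, on the lower side, BMP-SMAD targets, genes of mitosis, metallothioneins and TGF-beta targets, and on the higher side cytosolic aminoacyl-tRNA synthetases, serine and one-carbon enzymes, feedback genes of the ERK pathway, cytokines and ATF4 stress regulators. Counts refer to list members that passed the filter, and no list was tested as a whole.

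**Figure D1:**
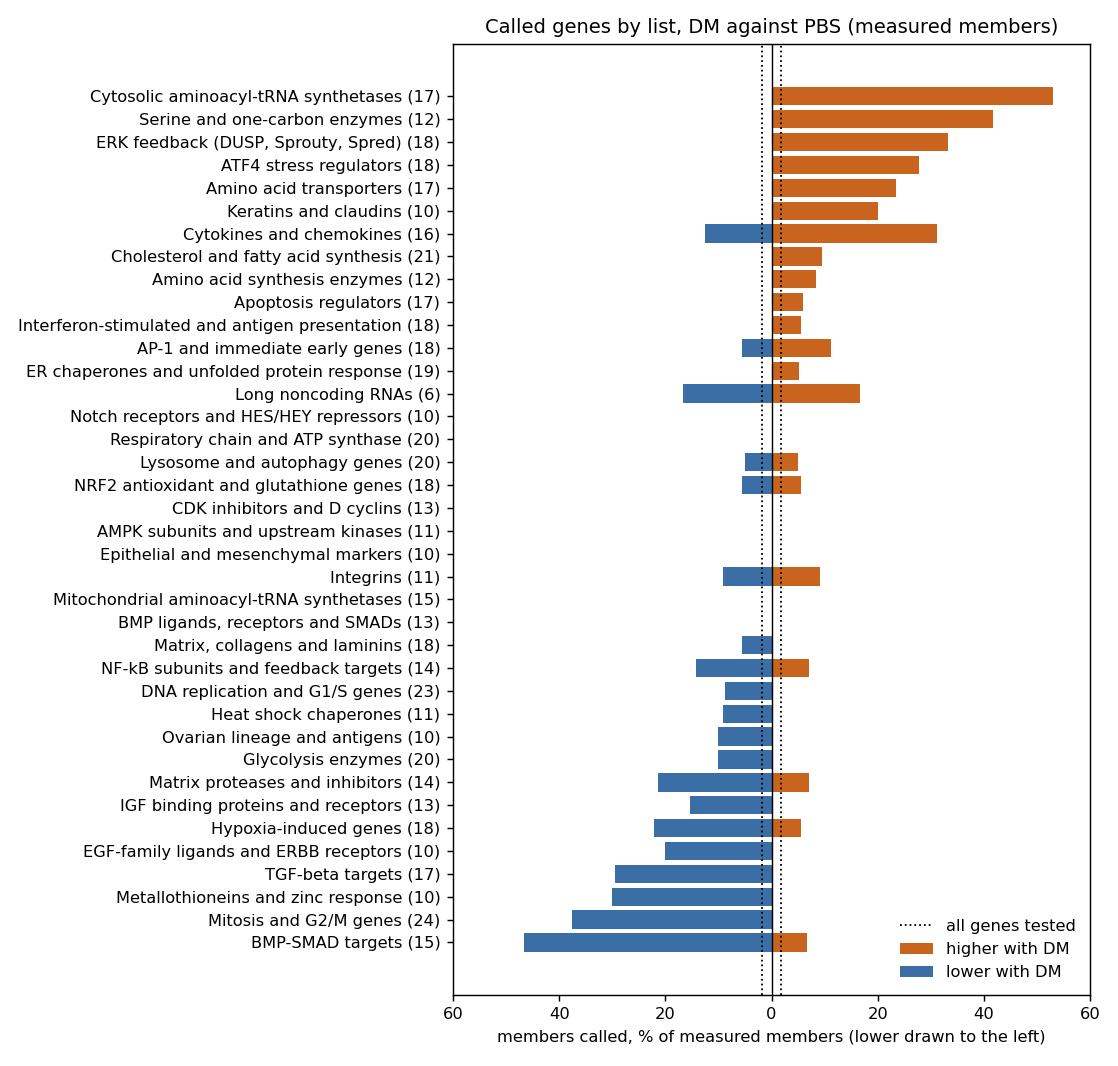
Share of the measured members of each gene list that were called in DM against PBS, higher members to the right and lower members to the left, in percent; the number of measured members is in brackets and dotted lines mark the shares over all genes tested, 1.86% higher and 1.71% lower. Cytosolic aminoacyl-tRNA synthetases (9 of 17) and BMP-SMAD targets (7 of 15 lower) extend farthest, and the respiratory chain and the mitochondrial synthetases have no called member.

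The deepest falls among called genes were those of ID3 and ID4, which are BMP-SMAD targets. Of 21 listed targets, 15 were measured, 7 fell and 1 rose, with a median difference of -0.56. All 4 ID genes fell, ID3 and ID4 by more than 10-fold.

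ID3 had signals of 2681, 2362 and 1692 with PBS and 217, 146 and 98.8 with DM. The lowest PBS array stood 7.79 times above the highest DM array, and the difference was -3.91 ± 0.35, or 15.1-fold (adjusted p = 1.94e-06). ID4 read 3339, 2940 and 3298 with PBS and 244, 257 and 248 with DM, and its 3 DM arrays lay within 12.4 signal units of each other. Its difference was -3.67 ± 0.16, or 12.8-fold (adjusted p = 1.79e-10). ID1 went from 20000, 19410 and 17600 to 3609, 3579 and 3653. That is a log2 difference of -2.39 ± 0.14, 5.25-fold (adjusted p = 1.03e-08), and the DM arrays were again closer to each other than the PBS arrays. ID2 read 1043, 1056 and 1087 with PBS and 324, 235 and 209 with DM, a log2 difference of -2.08 ± 0.27 (adjusted p = 1.43e-04). For each of the 4 genes the 2 groups were far apart and no array lay between them.

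**Figure D2:**
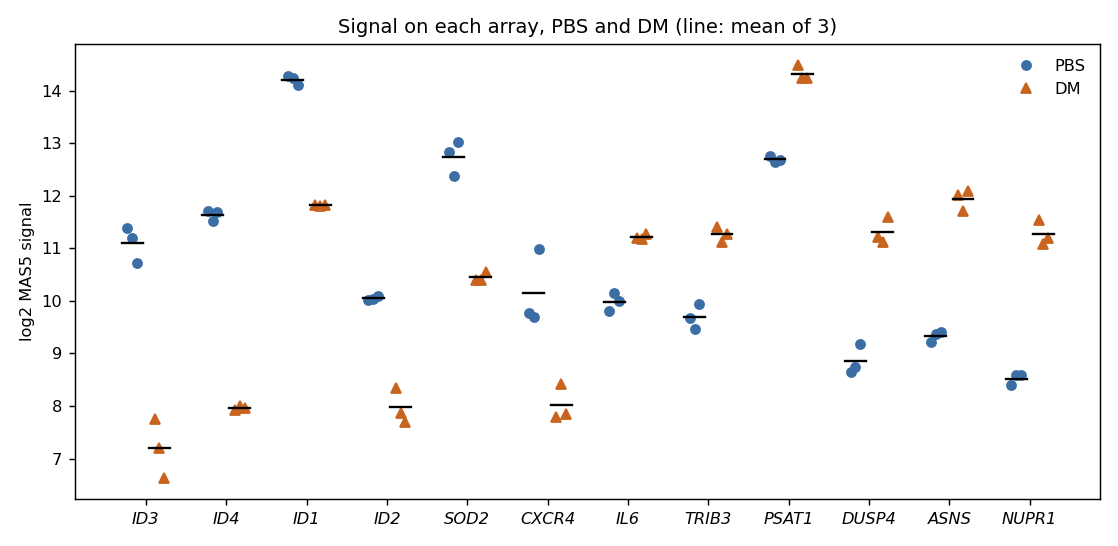
MAS5 signal on each array, on a log2 axis, for 12 genes that changed with DM: circles are the 3 PBS arrays, triangles the 3 DM arrays and short lines the mean of 3. The PBS and DM arrays do not overlap for any of the 12; the widest scatter within a group is in ID3 with DM (98.8 to 217) and in CXCR4 with PBS (829 to 2020).

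The pathway's own feedback moved less. SMAD9, a receptor-activated SMAD that also restrains the pathway, fell from 853, 689.8 and 716 to 226, 374 and 289, a difference of -1.37 ± 0.21 (adjusted p = 8.53e-04). SMAD7, an inhibitory SMAD, read 1276, 1507 and 1286 with PBS and 776, 758 and 1077 with DM; its difference of -0.65 ± 0.17 was called (adjusted p = 0.045), and the call was lost without PBS replicates 1, 2 or 3 or DM replicates 1 or 2 (adjusted p from 0.087 to 0.165). SMAD6, the other inhibitory SMAD, read 522, 551 and 622 with PBS and 377, 373 and 398 with DM. Its arrays did not overlap, but its difference of -0.56 ± 0.20 did not pass (adjusted p = 0.156). RUNX2, a transcription factor of bone formation, fell by 0.67 ± 0.12 on the log2 scale (adjusted p = 0.00255).

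MSX1, a homeobox repressor, was the exception in direction: it read 1048, 1135 and 947 with PBS and 1766, 1728 and 2078 with DM, a rise of 0.83 ± 0.16 on the log2 scale (adjusted p = 0.00579). The other 6 measured targets were not called, with differences of -0.24 for MSX2, -0.21 for ATOH8, -0.18 for HEY1, -0.04 for SMURF1, 0.33 for BAMBI and 0.69 for HEYL. Of 13 measured ligands, receptors and SMADs of the pathway, limma called 0, against 2 at an unadjusted p under 0.05. The transcript of BMP2 itself differed by -0.15, and those of SMAD1, SMAD5 and SMAD4 by 0.21, -0.26 and -0.14.

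The letters GGCGCC, a GC-rich element that SMAD proteins are known to bind, were sought on both strands in the 250 bases before the gene start in RefSeq's GRCh38.p14 promoters. They occurred in 2 of the 14 measured BMP-SMAD targets with a promoter entry, BAMBI and HEYL, and in 0 of the 7 that fell, against 25.7% of the 10286 tested genes with an entry and 16.1% of all 27305 promoters. Bases farther from the start were not searched, so any element there would be missed.

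TGF-beta targets, which the related receptors drive through SMAD2 and SMAD3, had 5 of 17 measured members (of 19 listed) that fell and 0 that rose; 12 were not called, and the median difference was -0.38. TGFBI, a secreted matrix protein named for its induction by TGF-beta, had 20670, 22670 and 23760 with PBS and 9207, 10420 and 8864 with DM. All 3 DM arrays lay below every control, a fall of 2.36-fold (log2 difference -1.24 ± 0.09, adjusted p = 1.51e-07). TPM1, an actin-binding tropomyosin, differed by -0.77 ± 0.08 (adjusted p = 2.53e-05), although 1 of its 5 probe sets above the filter had the opposite sign. TAGLN, an actin-binding protein of smooth muscle, read 1469, 1891 and 1445 with PBS and 775, 492 and 1085 with DM and differed by -1.09 ± 0.22 (adjusted p = 0.00799). SKI, a co-repressor of SMADs, differed by -0.64 ± 0.13 (adjusted p = 0.0103). THBS1, the matrix glycoprotein thrombospondin, differed by -1.10 ± 0.28, a call that was lost without PBS replicates 1, 2 or 3 or DM replicates 1 or 2 (adjusted p from 0.0583 to 0.168). The SMAD inhibitor SKIL (-0.46), fibronectin FN1 (-0.38) and PMEPA1 (-0.26) did not pass.

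NUPR1, ASNS and CHAC1, all known as ATF4 targets, had the largest rises among called genes with mean signals above the filter in both groups. Of 18 measured ATF4 stress regulators, 5 rose and 0 fell, with a median difference of 0.44 and 16 of 18 differences above 0. NUPR1, a small stress-induced chromatin protein, read 336, 384 and 385 with PBS and 2981, 2174 and 2351 with DM. Every DM array was at least 5.64 times the highest PBS array, and the rise was 2.75 ± 0.23 on the log2 scale, 6.74-fold (adjusted p = 9.65e-07). ATF4 read 8292, 7868 and 7932 with PBS and 19140, 18210 and 22430 with DM, a rise of 2.47-fold (log2 difference 1.31 ± 0.11, adjusted p = 9.65e-07). TRIB3, a pseudokinase induced by ATF4, rose from 815, 711 and 989 to 2707, 2239 and 2462, a difference of 1.57 ± 0.16 (adjusted p = 9.39e-06). CHAC1, which degrades glutathione, had 90.5, 44.9 and 85.1 with PBS and 502, 357 and 355 with DM; with 1 PBS array below the filter level its difference of 2.51 ± 0.55 is loosely fixed, and the call was lost without DM replicate 1 or without PBS replicate 2 (adjusted p = 0.0726 and 0.0662). CEBPG, a partner of ATF4 on DNA, rose by 0.70 ± 0.13 on the log2 scale (adjusted p = 0.00523).

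Other members of the list had large differences that did not pass. SESN2, an inhibitor of mTORC1, differed by 1.63 ± 0.58 (adjusted p = 0.145), STC2 by 1.40 ± 0.63 (adjusted p = 0.276) and GDF15, a secreted stress hormone, by 1.09 ± 0.37 (adjusted p = 0.134). DDIT3, which encodes CHOP, differed by 0.31, ATF3 by 0.50, and the eIF2-alpha kinases EIF2AK3 and EIF2AK4 by -0.10 and -0.01.

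ATF4 and C/EBP proteins bind a shared element whose core reads TGATGNAA. On either strand in the 250 bases before the gene start it was found in 7 of the 189 genes called higher that have a RefSeq promoter entry (3.7%), in 0 of the 163 called lower, in 1.55% of the 10286 tested genes and in 3.19% of all promoters. Among called members of the amino acid response lists it was in 4 promoters, shown here because they belong to genes whose signal rose with DM. Each sequence is given 5′ to 3′ along the gene's strand from GRCh38.p14, with the match in capitals; in CHAC1, AARS1 and IARS1 the core lies on the opposite strand.
CHAC1, chr15:40953237-40953294, plus strand, match 209 to 202 bases before the start: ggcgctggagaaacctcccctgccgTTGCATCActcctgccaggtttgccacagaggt
ASNS, chr7:97872444-97872501, minus strand, match 68 to 61 bases before the start: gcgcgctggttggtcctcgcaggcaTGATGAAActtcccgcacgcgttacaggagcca
AARS1, chr16:70289661-70289718, minus strand, match 187 to 180 bases before the start: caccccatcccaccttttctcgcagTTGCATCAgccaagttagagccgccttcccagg
IARS1, chr9:92293698-92293735, minus strand, match 13 to 6 bases before the start: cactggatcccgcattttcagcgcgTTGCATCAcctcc
The letters in CHAC1, AARS1 and IARS1 are the same 8 bases. Matches also lay before ATF3, BCAT1, GOT1, SLC1A3 and the mitochondrial YARS2, which were not called, and the 4 called serine and one-carbon enzymes with an entry had none in this window.

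Enzymes that make amino acids rose at particular steps. ASNS, asparagine synthetase, had 594, 663 and 676 with PBS and 4134, 3338 and 4395 with DM, and the difference of 2.61 ± 0.13 is 6.11-fold (adjusted p = 8.05e-10). It was the only called gene of 12 measured amino acid synthesis enzymes, and its call was lost when its 2 probe sets were averaged (log2 difference 1.27). In the serine pathway the first and second enzymes both rose. PHGDH read 546, 930.1 and 653 with PBS and 2181, 2679 and 3361 with DM, 3.9-fold (adjusted p = 1.05e-05), and PSAT1 6912, 6427 and 6555 with PBS and 23110, 19350 and 19450 with DM, 3.1-fold (adjusted p = 1.03e-08). The third enzyme, PSPH, differed by 0.52 ± 0.15 and did not pass (adjusted p = 0.0571).

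Downstream, the mitochondrial one-carbon enzymes SHMT2 (difference 0.97 ± 0.14, adjusted p = 5.13e-04) and MTHFD2 (0.71 ± 0.10, adjusted p = 5.53e-04) rose, as did CBS, which joins serine to homocysteine (0.98 ± 0.22, lost without DM replicate 1 or without PBS replicate 1 (adjusted p = 0.0856 and 0.0887)). MTHFD1, the cytosolic counterpart of MTHFD2, differed by -0.01. In all, 5 of 12 measured serine and one-carbon enzymes (of 17 listed) rose and 0 fell, with a median difference of 0.40. PCK2, the mitochondrial enzyme that turns oxaloacetate into phosphoenolpyruvate and is in no list, read 714, 698 and 688 with PBS and 1668, 1204 and 1571 with DM and rose by 1.07 ± 0.16 on the log2 scale (adjusted p = 6.53e-04).

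Of 17 measured amino acid transporters (of 19 listed), 4 rose and 0 fell. SLC1A5, which imports glutamine, rose from 484, 535 and 503 to 990.4, 982 and 1102, a difference of 1.01 ± 0.15 (adjusted p = 6.16e-04). SLC3A2, the shared heavy chain, rose by 0.75 ± 0.12 on the log2 scale (adjusted p = 0.00104), and so did 2 of its light chains. SLC7A11, which exchanges cystine for glutamate, rose by 0.64 ± 0.11 (adjusted p = 0.0035), and SLC7A5, which carries large neutral amino acids, by 0.72 ± 0.16 (adjusted p = 0.0158), the latter lost without PBS replicates 2 or 3 or DM replicates 1 or 3 (adjusted p from 0.058 to 0.0767). The transporters SLC38A2 and SLC7A1, both known to respond to amino acid shortage, differed by 0.15 and 0.22 and did not pass.

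Calls among the aminoacyl-tRNA synthetases were in the cytosolic list. Of 17 measured cytosolic enzymes (of 20 listed) 9 rose and 0 fell, with a median difference of 0.39, whereas of 15 measured mitochondrial enzymes (of 17 listed) limma called 0 (1 at an unadjusted p under 0.05), with a median difference of 0.06. WARS1, for tryptophan, read 1727, 1816 and 1620 with PBS and 4996, 4244 and 5009 with DM, 2.75-fold (adjusted p = 9.65e-07). SARS1, for serine, read 4467, 4471 and 4216 with PBS and 10410, 8886 and 11230 with DM, 2.31-fold (adjusted p = 3.18e-06). GARS1 for glycine, CARS1 for cysteine and YARS1 for tyrosine followed with differences of 1.03, 1.02 and 0.92, then AARS1 (0.68), IARS1 (0.59), TARS1 (0.39) and NARS1 (0.37). The standard errors of these 9 were between 0.08 and 0.15. Within the cytosolic list the enzymes for lysine, histidine, arginine, phenylalanine and leucine lay between -0.11 (LARS1) and 0.15 (FARSB), and EPRS1, for glutamate and proline, at 0.48 ± 0.13 (adjusted p = 0.0514). The 2 lists were not tested against each other. The differences of SARS2 and WARS2, the mitochondrial counterparts of SARS1 and WARS1, were -0.01 ± 0.25 and 0.27 ± 0.16. The number called depended on the probe sets and on the arrays: 4 cytosolic enzymes were called when a gene's probe sets were averaged, and 6 without DM replicate 1.

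**Figure D3:**
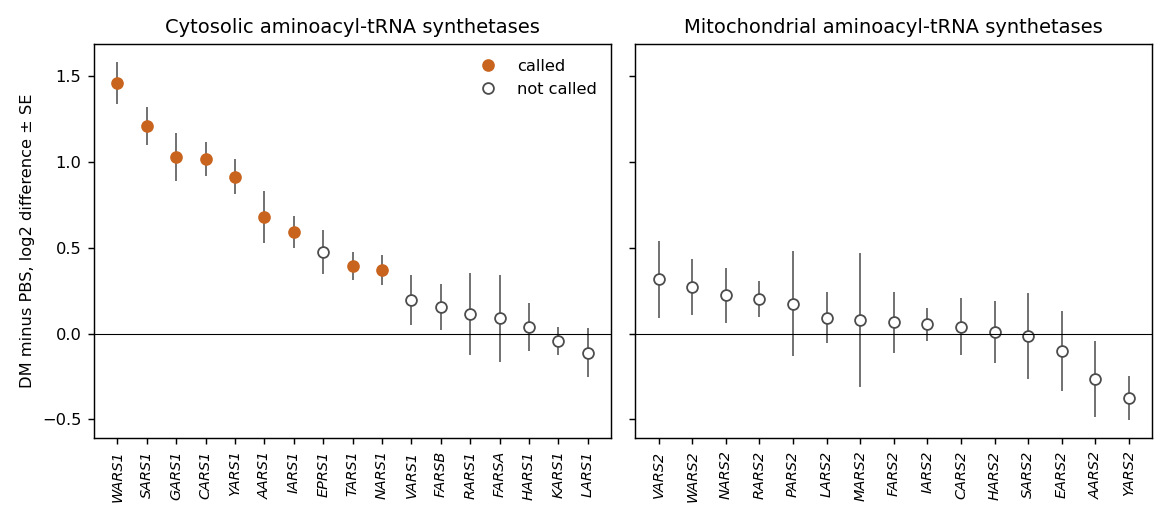
Log2 difference, DM minus PBS, with its standard error for the measured cytosolic (left) and mitochondrial (right) aminoacyl-tRNA synthetases; filled points were called. The cytosolic enzymes spread from 1.46 for WARS1 to -0.11 for LARS1, and the mitochondrial ones from 0.32 to -0.38 with none called.

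The chaperones of the endoplasmic reticulum, which share upstream signals with ATF4 in the unfolded protein response, moved little. Of 19 measured members 1 rose, the stress sensor ATF6 (0.64 ± 0.13, adjusted p = 0.00773), lost without DM replicate 1 (adjusted p = 0.0513). HSPA5, the main chaperone and a usual readout of this response, read 21960, 24440 and 25220 with PBS and 28830, 27640 and 23280 with DM, a difference of 0.15 ± 0.09 (adjusted p = 0.442). XBP1, HERPUD1 and DNAJB9 differed by 0.21, 0.32 and 0.02. Of 11 measured heat shock chaperones 1 fell, HSPB1 (-0.54 ± 0.13), a call lost without PBS replicates 2 or 3 or DM replicates 2 or 3 (adjusted p from 0.0675 to 0.12).

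Of 18 measured feedback genes of the ERK pathway (of 19 listed) 6 rose, 0 fell and 12 were not called, and the count was 6 without each of the 6 arrays in turn. DUSP4, a nuclear phosphatase that switches off ERK, had 399.8, 427 and 578 with PBS and 2394, 2219 and 3099 with DM. The rise of 2.46 ± 0.19 on the log2 scale is 5.5-fold (adjusted p = 4.33e-07). Its relatives DUSP6, DUSP5 and DUSP1 differed by 1.03 ± 0.15, 0.91 ± 0.15 and 0.77 ± 0.11 (adjusted p = 4.93e-04, 0.0019 and 5.20e-04); the last was 0.49 and not called with averaged probe sets. SPRY2, a Sprouty inhibitor of receptor signalling, rose by 0.88 ± 0.14 (adjusted p = 0.0012) and PHLDA1 by 0.36 ± 0.07 (adjusted p = 0.00871). The ETS factors ETV4 and ETV5 and cyclin D1, also known to follow ERK, differed by 0.57, 0.48 and 0.54 and did not pass, and SPRY1 and DUSP8 had differences of -0.62 and -0.74.

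Immediate early genes did not share a direction. EGR1, a zinc-finger factor induced by growth signals, read 595, 685 and 626 with PBS and 2371, 1933 and 2760 with DM, a rise of 3.67-fold (adjusted p = 2.08e-06), and KLF4 rose by 0.96 ± 0.20 on the log2 scale (lost without DM replicate 1 or without PBS replicate 2 (adjusted p = 0.0607 and 0.0508)). JUN fell by 0.74 ± 0.14 (adjusted p = 0.00465). FOS, with 306, 326 and 219 with PBS and 547, 518 and 412 with DM, differed by 0.81 ± 0.45 and did not pass (adjusted p = 0.419). The remaining 14 of 18 measured members were not called.

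Among 16 measured cytokines and chemokines (of 23 listed), 5 rose and 2 fell. IL6, an inflammatory cytokine that signals through STAT3, had 896, 1130 and 1023 with PBS and 2345, 2332 and 2480 with DM. The DM arrays were tight and all more than 2-fold above the highest control, and the rise was 1.24 ± 0.13 on the log2 scale, 2.36-fold (adjusted p = 2.40e-05). CXCL8, a neutrophil chemokine, read 10550, 11710 and 10560 with PBS and 19220, 20620 and 19020 with DM, 1.79-fold (adjusted p = 2.73e-06). IL1A rose by 0.71 ± 0.11 on the log2 scale (adjusted p = 6.16e-04; 0.29 and not called with averaged probe sets), LIF, a cytokine of the IL6 family, by 0.70 ± 0.15 (lost without DM replicate 1 or without PBS replicate 1 (adjusted p = 0.0661 and 0.0582)), and CXCL2 by 0.35 ± 0.09. IL32 fell by 0.76 ± 0.16 (lost without PBS replicate 3 or DM replicates 1 or 2 (adjusted p from 0.0562 to 0.0717)). TNFSF10, the death ligand TRAIL, fell by 0.50 ± 0.12 (lost without PBS replicates 2 or 3 or DM replicates 1 or 3 (adjusted p from 0.0648 to 0.127)). TNF, IL1B and CXCL1 differed by 0.33, 0.17 and 0.31 and did not pass.

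NF-kB controls many of these cytokines. Of 14 measured NF-kB subunits and targets 1 rose, 2 fell and 11 were not called, with a median difference of 0.09. SOD2, the mitochondrial superoxide dismutase, read 7268, 5308 and 8301 with PBS and 1345, 1348 and 1506 with DM, a fall of 4.89-fold (log2 difference -2.29 ± 0.44, adjusted p = 0.00558). This rests on the 1 probe set named only for SOD2, and the call was lost with a variance model that has no intensity trend or is robust. The same probe set read 9681, 1596 and 1674 with BMP2, so it took a high and a low level within 1 group. With BMP2+DM it read 1809, 1354 and 1306, and the DM effect with BMP2 of -1.005 was not called (limma, adjusted p = 0.188). NFKBIZ, a nuclear cofactor of NF-kB, fell by 0.53 ± 0.10 (adjusted p = 0.00481). NFKB1 rose by 0.47 ± 0.11 (lost without PBS replicates 1, 2 or 3 or DM replicate 3 (adjusted p from 0.0514 to 0.0906)). The feedback inhibitors NFKBIA and TNFAIP3 differed by -0.23 and 0.26.

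Of the matrix metalloproteinases MMP1, MMP7 and MMP10 fell, while the urokinase gene rose, and these 4 calls held without each of the 6 arrays. MMP7, or matrilysin, read 5246, 3954 and 5261 with PBS and 1794, 1994 and 1945 with DM, a log2 difference of -1.32 ± 0.13 (adjusted p = 1.05e-05). MMP1, the interstitial collagenase, read 30550, 32610 and 32840 with PBS and 16160, 18630 and 14780 with DM, a difference of -0.96 ± 0.09 (adjusted p = 4.08e-06), and MMP10 fell by 0.91 ± 0.17 (adjusted p = 0.00512). PLAU, the urokinase plasminogen activator, read 4394, 4117 and 4137 with PBS and 6705, 7208 and 6578 with DM, a rise of 0.70 ± 0.10 (adjusted p = 3.43e-04). The other 10 of 14 measured proteases and inhibitors were not called, MMP14 at -0.21 and TIMP1 at 0.15 among them.

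Epithelial structure genes moved at a few places. Keratins KRT80 (1052, 1006 and 1278 with PBS and 2324, 2489 and 2321 with DM) and KRT7 (1228, 1226 and 1249 with PBS and 2557, 1860 and 2807 with DM) rose by 1.10 ± 0.13 and 0.94 ± 0.14 on the log2 scale (adjusted p = 5.98e-05 and 7.54e-04). The keratins KRT8, KRT18 and KRT19 differed by 0.13, 0.28 and 0.05 and did not pass. Of 10 measured epithelial and mesenchymal markers limma called 0, against 3 at an unadjusted p under 0.05; VIM differed by -0.18 and SNAI2 by 0.02. GJA1, the gap junction protein connexin 43, fell from 3382, 2781 and 3213 to 1167, 1567 and 1377 (-1.20 ± 0.14, adjusted p = 3.84e-05). ITGA3, a laminin-binding integrin chain, rose by 0.52 ± 0.10 (lost without PBS replicate 3 (adjusted p = 0.0533)) and ITGB3 fell by 1.67 ± 0.39 (lost without PBS replicates 2 or 3 or DM replicate 3 (adjusted p from 0.0802 to 0.104)).

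HAS3, which makes hyaluronan, fell from 3276, 3697 and 3366 to 1071, 1533 and 1660 (-1.30 ± 0.17, adjusted p = 1.36e-04; -0.84 and not called with averaged probe sets). IGFBP3, which binds insulin-like growth factors, fell from 18060, 14130 and 21890 to 7485, 8369 and 7389 (-1.20 ± 0.14, adjusted p = 4.63e-05). IGFBP7 fell by 0.40 ± 0.11, a call lost without PBS replicates 1 or 3 or DM replicates 1, 2 or 3 (adjusted p from 0.0838 to 0.191). CXCR4, the receptor for the chemokine CXCL12, read 876, 828 and 2020 with PBS and 223, 344 and 231 with DM, a difference of -2.12 ± 0.37 (adjusted p = 0.00258), and PBS replicate 3 stood above the other PBS arrays. NRG1, an ERBB3 ligand, and COL8A1, a short-chain collagen, were also called lower, but their DM signals, 16.4, 74.9 and 21.2 and 10.6, 94.1 and 15.6, had means below the level of the filter, so no fold is given. The call of NRG1 was lost without PBS replicate 3 (adjusted p = 0.0513) and that of COL8A1 without PBS replicates 1, 2 or 3 or DM replicates 1 or 3 (adjusted p from 0.104 to 0.151). ERRFI1, a feedback inhibitor of ERBB receptors, fell by 0.56 ± 0.12 (lost without DM replicate 3 or without PBS replicate 3 (adjusted p = 0.0571 and 0.0806)), and EGFR differed by 0.10.

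Genes known to be induced in hypoxia, and glycolysis enzymes, mostly had differences below 0 with DM alone, and most did not pass. Of 18 measured hypoxia genes (of 21 listed) 4 fell and 1 rose, and of 20 measured glycolysis genes 2 fell, with 18 of 20 differences below 0; the medians were -0.31 and -0.23. ADM, the vasodilator peptide adrenomedullin, read 1643, 1242 and 2398 with PBS and 378, 596 and 483 with DM, a log2 difference of -1.83 ± 0.27 (adjusted p = 6.27e-04). DEPP1, a FOXO target, read 548, 589 and 1244 with PBS and 197, 164 and 39.3 with DM; the difference of -2.77 ± 0.62 was lost without DM replicate 3 or without PBS replicate 3 (adjusted p = 0.0747 and 0.107). CA12, a carbonic anhydrase, fell by 0.97 ± 0.17 (adjusted p = 0.00314). P4HA1, a prolyl hydroxylase of collagen, fell by 0.47 ± 0.12, a call lost without PBS replicates 1, 2 or 3 or DM replicates 1 or 3 (adjusted p from 0.0596 to 0.167), and averaging its probe sets gave a difference of 0.15.

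PFKFB3, which makes the activator of phosphofructokinase, fell from 2265, 1609 and 1891 to 1022, 1159 and 934 (-0.88 ± 0.15, adjusted p = 0.00191). PDK1, the kinase that restrains pyruvate dehydrogenase, fell by 0.61 ± 0.16 (lost without PBS replicates 2 or 3 or DM replicates 1 or 2 (adjusted p from 0.12 to 0.173)). STC1, a secreted glycoprotein, rose by 0.53 ± 0.13 (lost without PBS replicates 1, 2 or 3 or DM replicates 2 or 3 (adjusted p from 0.0684 to 0.114)). HK2, LDHA, PGK1 and VEGFA differed by -0.92, -0.23, -0.30 and 0.12, and HIF1A by 0.19, without passing. The count of hypoxia genes that fell was 2 without PBS replicate 3 or without DM replicate 3, and 1 when a gene's probe sets were averaged.

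In the arrays with BMP2 the median DM differences of these lists lay above 0. The median there was 0.28 for the hypoxia genes, with 5 rising and 1 falling, and 0.16 for glycolysis, with 1 rising and 1 falling. These differences start from BMP2 arrays that lay below PBS. The mean log2 deviation of the hypoxia list from PBS was -1.13, -0.47 and -0.66 with BMP2 alone. It was -0.33, -0.35 and -0.44 with BMP2+DM and -0.44, -0.40 and -0.57 with DM alone. For glycolysis it was -0.38, -0.17 and -0.26 with BMP2 alone and -0.17, -0.02 and -0.04 with BMP2+DM. NDRG1 read 7040, 6260 and 8568 with PBS and 5993, 6839 and 7895 with DM, a difference of -0.07, but 1870, 3572 and 2969 with BMP2 and 6932, 6684 and 6859 with BMP2+DM, a rise of 1.33; the difference between these effects was 1.41 ± 0.25 (adjusted p = 0.0349). BNIP3, a mitochondrial receptor for autophagy, had differences of -0.41 without and 0.68 with BMP2, which differed by 1.09 ± 0.20 (adjusted p = 0.0368). For both, the arrays with BMP2 alone were the lowest, and the DM arrays with and without BMP2 overlapped. ADM had -1.83 and 0.04, a difference of effects of 1.87 ± 0.38 that did not pass (adjusted p = 0.0673), and DEPP1 -2.77 and 0.72 (adjusted p = 0.218). BMP2 alone differed from PBS by -1.70 ± 0.27 for ADM (limma, adjusted p = 0.0044) and by -2.36 ± 0.62 for DEPP1, which did not pass. The difference of effects was called for 3 of 18 hypoxia genes, NDRG1, BNIP3 and STC1, and for 0 of 20 glycolysis genes.

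**Figure D4:**
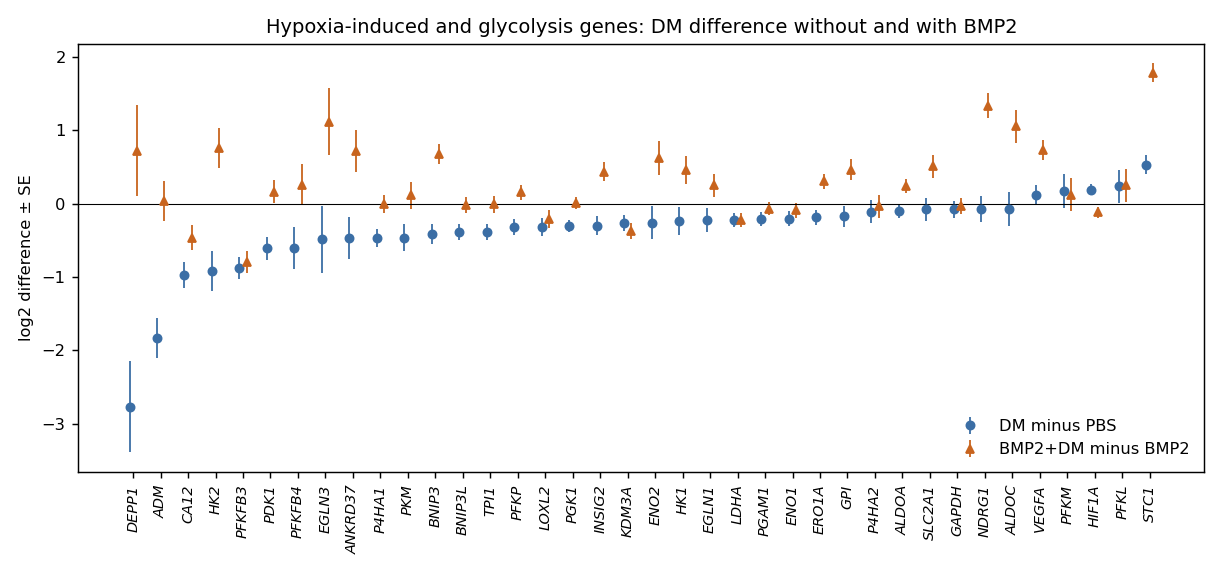
Log2 DM difference with its standard error for the measured hypoxia-induced and glycolysis genes, without BMP2 (circles, DM minus PBS) and with it (triangles, BMP2+DM minus BMP2). Most circles lie below 0, from -2.77 for DEPP1, while triangles lie on both sides; NDRG1 is at -0.07 and 1.33.

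Of 24 measured genes of mitosis 9 fell, 0 rose and 15 were not called; 21 differences were below 0, and the median was -0.29. KIF20A, a kinesin of cytokinesis, read 3231, 3071 and 2886 with PBS and 2033, 2353 and 1756 with DM, a log2 difference of -0.59 ± 0.12 (adjusted p = 0.00677), and cyclin A2 (CCNA2) 4878, 4901 and 5011 with PBS and 3534, 3528 and 3656 with DM, a difference of -0.46 ± 0.11 (lost without PBS replicates 1, 2 or 3 or DM replicates 1 or 2 (adjusted p from 0.0575 to 0.0784)). BIRC5, NUSAP1, TTK and HMMR fell, with differences of -0.41 ± 0.08, -0.36 ± 0.08, -0.39 ± 0.10 and -0.39 ± 0.10, and CDC20, NEK2 and TPX2 were also called. The call of BIRC5 was lost without PBS replicate 3 (adjusted p = 0.0524), that of NUSAP1 without PBS replicates 1 or 3 or DM replicates 1 or 3 (adjusted p from 0.057 to 0.0756), that of TTK without any 1 of the 6 arrays (adjusted p from 0.0505 to 0.202) and that of HMMR without PBS replicates 1 or 3 or DM replicates 1 or 3 (adjusted p from 0.0775 to 0.151). These calls sat close to the threshold: the count was 0 with median centring and 0 without the variance trend, from 1 (without PBS replicate 3) to 5 when a PBS or DM array was left out, and 3 with averaged probe sets. The median was -0.23 with median centring. MKI67, CDK1 and TOP2A differed by -0.02, 0.15 and 0.03.

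Of 23 measured replication genes 2 fell: UHRF1, which maintains DNA methylation, had a difference of -0.72 ± 0.09 (adjusted p = 1.02e-04) and the helicase subunit MCM4 one of -0.52 ± 0.13 (lost without PBS replicates 1, 2 or 3 or DM replicate 2 (adjusted p from 0.0684 to 0.136)). Of 13 measured CDK inhibitors and D cyclins limma called 0, against 3 at an unadjusted p under 0.05; CDKN1A differed by 0.02. SPDL1, a kinetochore protein in no list, fell from 5156, 4070 and 4153 to 2446, 2594 and 2926 (-0.74 ± 0.10, adjusted p = 3.43e-04).

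Metallothioneins, which bind zinc and copper, fell in 3 of the 10 measured genes of their list, and this count held without each of the 6 arrays. MT1H read 18500, 17370 and 20210 with PBS and 7399, 7589 and 9731 with DM, a log2 difference of -1.19 ± 0.11 (adjusted p = 1.94e-06). MT1X fell from 27250, 24100 and 27670 to 17140, 16800 and 17070 and MT2A from 41460, 42250 and 44160 to 28330, 29810 and 28100, with differences of -0.63 ± 0.09 and -0.57 ± 0.08 (adjusted p = 5.35e-04 and 3.63e-04). MT1 genes are near-identical copies, and their probe sets may share transcripts; MT1E, MT1F and MT1G differed by 0.18, -0.50 and -0.37. The zinc exporter SLC30A1, which follows the same metal sensor, differed by 0.05.

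Of the redox genes SLC7A11, described above, rose and TXNRD1 fell, the 2 calls among 18 measured. TXNRD1, thioredoxin reductase, fell from 18930, 18570 and 18600 to 13040, 14900 and 12520 (-0.48 ± 0.08, adjusted p = 0.00248); the call was lost with median centring and when its probe sets were averaged (log2 difference -0.14), whereas NQO1 and GCLM differed by 0.34 and -0.12. FDPS, which makes farnesyl pyrophosphate, rose from 5875, 6286 and 5398 to 9740, 9265 and 9603 (0.71 ± 0.08, adjusted p = 5.98e-05), and SCD, a fatty acid desaturase, by 0.61 ± 0.13 (lost without PBS replicate 1 or DM replicates 1 or 2 (adjusted p from 0.0527 to 0.0824)); the other 19 of 21 measured lipid synthesis genes did not pass, HMGCS1 at -0.42 among them. SQSTM1, an autophagy receptor, rose by 0.40 ± 0.09 (lost without PBS replicates 1 or 3 or DM replicate 1 (adjusted p from 0.0503 to 0.0687)) and CTSB, a lysosomal protease, fell by 0.30 ± 0.08 (lost without any 1 of the 6 arrays (adjusted p from 0.0514 to 0.165)). MCL1, which holds back apoptosis, rose by 0.63 ± 0.10 (adjusted p = 0.00121), although 1 of its 5 probe sets above the filter had the opposite sign and the mean over its probe sets gave -0.14. ISG20, an exonuclease, rose by 0.91 ± 0.19 (lost without DM replicate 1 (adjusted p = 0.0679)), the 1 call among 18 measured interferon-stimulated and antigen presentation genes.

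Lists without a call bound what was measured. Of 20 respiratory chain and ATP synthase genes, limma called 0, also at an unadjusted p under 0.05, and all differences lay between -0.14 and 0.20. Of 11 subunits and upstream kinases of AMPK, limma called 0 (4 at an unadjusted p under 0.05), and of 10 Notch receptors and HES or HEY repressors it called 0 (1 at an unadjusted p under 0.05). Over all genes tested, 2052 of 12674 were under that unadjusted p. Among 10 measured ovarian lineage genes CD24, a surface glycoprotein, was the 1 call; it fell by 0.37 ± 0.09, a call lost without any 1 of the 6 arrays (adjusted p from 0.0839 to 0.126).

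Of 6 measured long noncoding RNAs on the list 1 fell and 1 rose. UCA1, known from bladder and ovarian cancer cells, read 2338, 2247 and 1811 with PBS and 531, 642 and 508 with DM, a log2 difference of -1.93 ± 0.16, 3.8-fold (adjusted p = 9.65e-07). ZFAS1, a host of small nucleolar RNAs, rose from 12490, 12940 and 13850 to 22410, 21090 and 20580 (0.71 ± 0.10, adjusted p = 2.58e-04). The 4 other measured members of the list did not pass. SNHG32, another such host and in no list, rose from 2916, 2685 and 2663 to 7146, 6566 and 4727 (1.14 ± 0.12, adjusted p = 1.92e-05).

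Of the 453 called genes, 351 were in none of the 38 lists. The rises with the smallest p among them were, besides SNHG32, BAG1, a co-chaperone of HSP70, with 3123, 3237 and 3299 with PBS and 8948, 7947 and 7598 with DM (1.34 ± 0.09, adjusted p = 3.14e-08); FGFBP1, which releases fibroblast growth factors from matrix (1.29 ± 0.11, adjusted p = 9.65e-07); SELENOW, a small selenoprotein (0.98 ± 0.10, adjusted p = 1.05e-05); IFRD1, a transcriptional regulator (1.28 ± 0.14, adjusted p = 3.17e-05); and GULP1, an engulfment adaptor (1.02 ± 0.11, adjusted p = 3.23e-05). On the lower side, besides HAS3, GJA1 and SPDL1, they were TSPAN13, a tetraspanin (-1.04 ± 0.14, adjusted p = 1.81e-04); AMIGO2, an adhesion protein (-0.70 ± 0.09, adjusted p = 2.46e-04); and RBM3, a cold-induced RNA-binding protein (-0.76 ± 0.10, adjusted p = 1.46e-04), for which 1 of 2 probe sets had the opposite sign. None of these calls was lost without 1 of the 6 arrays. GASK1B, a Golgi-associated protein, fell from 803, 623 and 646 to 208, 261 and 111 (-1.92 ± 0.28, adjusted p = 5.24e-04).

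Several other large differences rested on dim probe sets. IL20RB, an interleukin receptor chain (1.58 ± 0.38, lost without PBS replicates 2 or 3 or DM replicates 1 or 3 (adjusted p from 0.0506 to 0.102)), CLPB, a mitochondrial chaperone (1.37 ± 0.36, lost without PBS replicates 2 or 3 or DM replicates 1 or 3 (adjusted p from 0.107 to 0.198)) and SLC35C1, the Golgi carrier of GDP-fucose (1.32 ± 0.28, lost without DM replicate 1 (adjusted p = 0.0524)) rose. DHRS3, a retinal reductase (-2.28 ± 0.56), and the noncoding MIR1915HG (-1.81 ± 0.46) and HMGN2P46 (-1.64 ± 0.33) fell; these calls were lost without PBS replicates 1, 2 or 3 (adjusted p from 0.0547 to 0.133), without PBS replicates 2 or 3 or DM replicates 2 or 3 (adjusted p from 0.128 to 0.142) and without PBS replicate 3 (adjusted p = 0.0676).

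The DM effect was measured a second time in the 6 arrays with BMP2. The group means share no array with the comparison above. Both comparisons, however, use 1 estimate of the spread, 1 filter and 1 choice of probe sets, all from the 12 arrays, so the calls are not independent. A fit of the DM and PBS arrays alone called 378 genes, 342 of them among the 453. With BMP2, 919 genes, 7.25%, were called in BMP2+DM against BMP2. Of the 453 genes called without BMP2, 427 (94.3%) had the same sign with it, against 62.5% of all genes, and 239 were also called with the same sign, which is 52.8% of the 453 and 26.0% of the 919. Across the 453 genes, which are not independent replicates, the differences correlated with r = 0.75, and across all 12674 genes with r = 0.25. NUPR1 (3.20), ASNS (2.25), DUSP4 (1.72) and IL6 (1.40) rose with BMP2 as well, and ID2 fell too (-2.06).

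The test of the difference between both DM effects called 15 genes, 0.118%, of which 9 were also called without BMP2; the count was 0 without PBS replicate 3, where 931 genes had an unadjusted p under 0.05, and 2 with median centring. ID4 and ID1 fell less with BMP2. ID4 read 10610, 7896 and 13320 with BMP2 and 1649, 2227 and 1854 with BMP2+DM, an effect of -2.45 against -3.67 without BMP2, and the effects differed by 1.22 ± 0.22 (adjusted p = 0.0349). ID1 read 43290, 29710 and 48430 with BMP2 and 14700, 20070 and 17050 with BMP2+DM, an effect of -1.21 against -2.39, a difference of 1.18 ± 0.20 (adjusted p = 0.0318). In both, every BMP2+DM array lay above every array with DM alone. ID3 had effects of -2.92 and -3.91, which were not called different (adjusted p = 0.591).

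CXCR4 and DECR2 had effects of opposite sign, as did ARF5 and, with an effect near 0 with BMP2, IGFBP3 (both below). CXCR4 fell without BMP2 but read 126, 129.8 and 175 with BMP2 and 495, 189.5 and 350.1 with BMP2+DM, an effect of 1.17 that did not pass by itself (adjusted p = 0.064); the effects differed by 3.30 ± 0.52 (adjusted p = 0.0205). DECR2, a peroxisomal reductase, read 220.4, 439.5 and 354 with PBS and 83.4, 96.7 and 92 with DM; its call was lost without PBS replicate 2 or without PBS replicate 3 (adjusted p = 0.0756 and 0.0611). With BMP2 present it read 111, 81.4 and 64.1 with BMP2 and 366, 350.1 and 255 with BMP2+DM, and the effects of -1.84 and 1.94 differed by 3.78 ± 0.55 (adjusted p = 0.011). The DECR2 signals with DM alone and with BMP2 alone lie near the filter level of 69.8, and BMP2 replicate 3 is below it. The sizes of its effects are therefore loosely fixed. In CXCR4 the PBS arrays were the highest, the arrays with BMP2 alone the lowest, and the DM and BMP2+DM arrays overlapped. In DECR2 the PBS and BMP2+DM arrays overlapped, and PBS and BMP2+DM lay above the arrays with BMP2 alone or DM alone.

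IGFBP3 fell without BMP2, while with BMP2 its arrays overlapped (8304, 11820 and 11330 with BMP2, 10460, 10910 and 10440 with BMP2+DM, an effect of 0.03); the effects differed by 1.23 ± 0.20 (adjusted p = 0.0205). ARF5, a small GTPase of the Golgi, had effects of -0.53 and 0.45 (difference 0.98 ± 0.18, adjusted p = 0.0349), and the call of the first was lost without PBS replicates 2 or 3 or DM replicates 1 or 3 (adjusted p from 0.0582 to 0.104). STC1 and PHLDA2, a growth regulator of the placenta, rose in both settings, with effects of 0.53 and 1.78 and of 0.70 and 1.79 (differences 1.25 ± 0.18 and 1.09 ± 0.20, adjusted p = 0.011 and 0.0409). The larger effects with BMP2 start from BMP2 arrays that lay below PBS. BMP2 alone differed from PBS by -1.47 ± 0.13 for STC1 and -0.85 ± 0.14 for PHLDA2 (limma, adjusted p = 2.2e-05 and 0.0063). For STC1 every BMP2+DM array lay below every array with DM alone, and for PHLDA2 these arrays overlapped. With averaged probe sets the rises of STC1 and PHLDA2 without BMP2 were 0.23 and 0.09 and were not called, and 1 of 3 and 1 of 2 of their probe sets above the filter had the opposite sign. CD24 fell in both, with effects of -0.37 and -1.38 (difference -1.01 ± 0.13, adjusted p = 0.00874). The larger effect with BMP2 starts from a higher level, as BMP2 alone differed from PBS by 0.68 ± 0.09 (limma, adjusted p = 0.0013). The BMP2+DM arrays of CD24 (2564, 2563 and 2833) also lay below every array with DM alone (3385, 3361 and 3249).

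**Figure D5:**
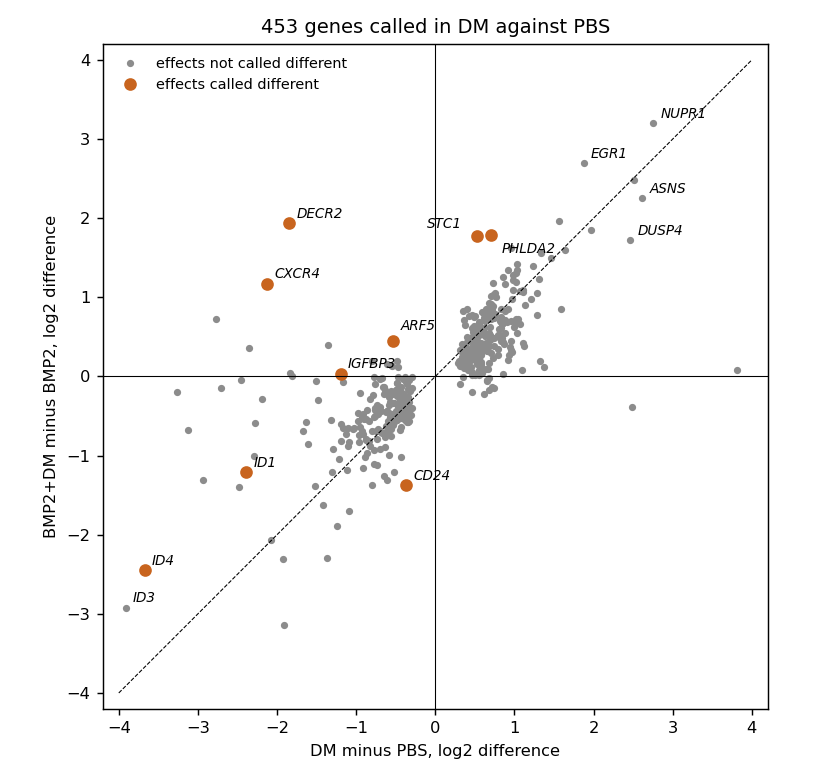
Log2 DM difference without BMP2 (horizontal axis) against that with BMP2 (vertical axis) for the 453 genes called without BMP2; the dashed line marks equal effects and large points are the 9 genes whose effects were called different. Of the 453 points, 427 lie at the lower left or upper right, where both effects have 1 sign. CXCR4, DECR2, ARF5 and IGFBP3 are among the points in the upper left.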

How the data were processed

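RNA from 12 dishes was measured on 1 Affymetrix array each, from biotin-labelled cRNA per the labels' protocols. The authors deposited 1 linear MAS5 intensity per probe set and array; MAS5 is named in the submitters' processing notes without a version, and trimmed means (2% trimmed) from 495.77 to 496.1 show a common scaling. Detection calls were not used here.

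Of 54613 probe sets, 41091 were paired with 1 gene symbol by a platform annotation table, 1801 with several and 11721 were not listed. Intensities were raised to a floor of 1 (396 values) and taken to log2. Each of 19775 genes was represented by its brightest probe set, and 12674 exceeded a signal of 69.8, the overall probe set median; the other 7101 were not tested. One limma model (limma 3.58.1, R 4.3.3) with a mean per group was fitted to all 12 arrays, with empirical Bayes moderation along an intensity trend, 8 residual and 9.24 prior degrees of freedom. Tests were two-sided with Benjamini-Hochberg adjustment over the 12674 genes. With 3 arrays per group the smallest two-sided permutation p is 0.1, so no permutation test was used. The number of arrays limits the precision. The code was tested on simulated data.

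The genes and the 38 lists were chosen with earlier results of these data known. Named by rule were 6 markers, the 15 largest rises and 15 largest falls with separate groups and mean signals above the filter in both, all measured BMP-SMAD targets, up to 6 called members of each list, up to 6 genes each way in no list and the called differences between effects. Other genes, PCK2 among them, were chosen after their values were seen. Promoters came from RefSeq (GRCh38.p14), the first listed start of each gene, and 10286 of the tested genes had one. The alternatives were other scalings, offsets, filters, probe set rules and variance models, a replicate block, a fit of the 6 arrays alone and the omission of each array. No genome or protein sequence was used here.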

Additional observations from a re-analysis of the deposited data

Results flagged for a closer look

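The DM effect differed between cells with and without BMP2 in 15 genes (limma, adjusted p under 0.05 for the difference of effects, BMP2+DM minus BMP2 less DM minus PBS, on the log2 scale). Of these, 9 were called in DM against PBS: the differences were 1.22 for ID4, 1.18 for ID1, 3.30 for CXCR4, 3.78 for DECR2, 1.23 for IGFBP3, 0.98 for ARF5, 1.25 for STC1, 1.09 for PHLDA2 and -1.01 for CD24. The other 6 were not called in DM against PBS: 1.41 for NDRG1, 1.09 for BNIP3, 0.81 for the chemokine CCL20, 1.21 for PDZK1IP1, 1.05 for the lysosomal ribonuclease RNASET2 and -0.55 for the splicing factor SF3B1.

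CCL20 read 6811, 6429 and 7047 with PBS and 6500, 7703 and 6240 with DM, with overlapping groups, and 4417, 4387 and 5209 with BMP2 and 7954, 9112 and 7650 with BMP2+DM, where every BMP2+DM array lay above every BMP2 array. SF3B1 read 12640, 11620 and 12150 with PBS and 14920, 13710 and 14580 with DM and 15280, 14890 and 14900 with BMP2 and 11990, 12510 and 12130 with BMP2+DM, so that its signal was higher with either agent alone than with neither or both. Both groups of each comparison had 3 arrays, and leaving out PBS replicate 3 brought the number of such genes to 0. The part of any 1 array in these differences was not tested further.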

How the results depend on the processing

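The number of genes called in DM against PBS was 453. It was 234 with median centring, 180 when the probe sets of a gene were averaged, which takes in dim ones, and 227 with a variance model without a trend; leaving out 1 of the 12 arrays gave 252 to 508. Of the calls made under these settings, 232, 155 and 206 were among the 453. The other settings gave 373 (no filter) to 526 (the brightest 30% of probe sets). The difference between the DM effects with and without BMP2 was called for 15 genes, and for 2 with median centring, 4 with the mean of probe sets, 5 with every probe set, 1 without a trend, 26 with the brightest 30% of probe sets and 0 to 42 without 1 array. The cause of these shifts was not tested. The sign turned for MCL1 (-0.14) and P4HA1 (0.15) with the mean of probe sets.

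With the replicate number as a block, 399 genes were called in DM against PBS and 8 for the difference of effects. The labels do not say whether equal numbers mark paired dishes. Deviations of PBS and DM arrays from their group means correlated with r = 0.00826, 0.0236 and 0.0589 where the numbers were equal. Where the numbers differed, r lay between -0.0701 and 0.0473. With 3 arrays a group these values cannot settle whether the numbers pair the samples. Of the 118 named called genes, 49 kept the call under every setting that tested them, 47 lost it with the mean of probe sets, 40 without a trend, 26 with median centring, 4 with the block and 33 without PBS replicate 3. Of 60 with more than 1 probe set above the filter, all probe sets had the same sign in 51. Dim probe sets and 3 arrays a group limit what could be called.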

Other observations

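Several gene families outside the lists also hold called genes. They were picked by symbol after the values were seen, and no family was tested. Except for TNFSF10, the calls in this section were not rechecked without single arrays. The CLK kinases, which phosphorylate splicing factors, had 3 of 4 measured members called higher: CLK4 read 567, 439.5 and 558 with PBS and 975, 899 and 988 with DM, and the log2 differences were 0.88 ± 0.16 for CLK4, 0.85 ± 0.16 for CLK1 and 0.79 ± 0.18 for CLK3 (limma, adjusted p = 0.00393, 0.00532 and 0.0157), with CLK2 at 0.03. Of 21 measured genes with an HNRNP symbol, most of which encode RNA-binding proteins, 3 were lower and 18 were not called. HNRNPA3P1 and HNRNPD-DT are counted among these 18 by symbol only. The 3 were HNRNPH1 (-0.50 ± 0.08), HNRNPC (-0.44 ± 0.09) and HNRNPR (-0.31 ± 0.08), with limma adjusted p of 0.00121, 0.0112 and 0.0359. Of 6 caveolins and cavins, the coat proteins of caveolae, 3 were lower: CAV1 read 42170, 41460 and 47880 with PBS and 33160, 33050 and 30980 with DM (-0.43 ± 0.08, adjusted p = 0.0036), and CAV2 and CAVIN3 differed by -0.39 and -0.47.

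Among 27 measured histone genes 4 were lower. H2AJ read 2864, 3208 and 2990 with PBS and 1747, 1823 and 1326 with DM (-0.90 ± 0.16, adjusted p = 0.00265). The others were H2BC6 (-0.86), H1-2 (-0.76) and H2AX (-0.37), with limma adjusted p of 0.0197, 0.037 and 0.0435. In the family 23 differences lay below 0 with a median of -0.44, and many of these probe sets are dim. Of 6 measured TNF superfamily ligands CD70 (-1.10 ± 0.20), TNFSF9 (-0.87 ± 0.13) and TNFSF10 were lower and LTB was higher (0.85 ± 0.22, limma, adjusted p = 0.0356). FOXO1, a forkhead factor restrained by AKT, read 519, 712 and 689.7 with PBS and 1007, 1163 and 946 with DM and was higher by 0.71 ± 0.16 (adjusted p = 0.0204), and EIF4EBP1, an inhibitor of cap-dependent translation, read 2450, 2314 and 2555 with PBS and 4009, 3774 and 4169 with DM and was higher by 0.71 ± 0.10 (adjusted p = 4.09e-04). BDNF, a neurotrophin, was higher by 1.04 ± 0.22 (adjusted p = 0.0112).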
